A study of Mus musculus with 12 samples.

Results

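The cholesterol synthesis pathway and the machinery that sets its transcription were followed in mouse intestine as 27 named genes of the 47643 in the deposited table. Of these, 19 encode enzymes that turn acetyl-CoA into cholesterol or its isoprenoid relatives, and 8 encode the SREBP transcription factors and the proteins that hold, cleave or answer to them. The members were taken by gene symbol from a fixed list, with no cut on a measured value. The list was chosen with earlier results of these data known. All 27 passed the filter on low counts, as did 17602 genes in all.

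RNA of intestine was sequenced from male C57BL/6 mice aged 7 to 8 weeks. The layout was 2 by 2 in genotype and diet, with 3 libraries in each of the 4 groups. Pparafl/fl mice, with Ppara flanked by recombinase sites, are called floxed, while PparaΔIE mice, whose name denotes loss of Ppara from the intestinal epithelium, are called IEKO. Mice of either genotype ate chow or a diet labelled 60% HFD (high-fat diet) for 10 days, so the groups are floxed chow, IEKO chow, floxed HFD and IEKO HFD. The labels name no segment of the intestine, no recombinase line, no deleted exons and no pooling of animals. Whether each library stands for its own mouse is not stated either, so the p-values reflect no more than sample-to-sample spread, part of which may be technical. PPARA, the product of Ppara, is a fatty acid sensor of the nuclear receptor family and switches on genes of fat oxidation.

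Cells sense cholesterol in the membrane of the endoplasmic reticulum. When it is low, the escort protein SCAP carries SREBP to the Golgi, where a pair of proteases frees its active part, and SREBP2 then turns on nearly every gene of cholesterol synthesis. When it is high, the INSIG proteins hold SCAP and SREBP in place, and transcription of the pathway falls. The intestinal epithelium both makes cholesterol and takes it up from the diet and bile, and Insig1 is itself a classic target of SREBP.

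Promoters of pathway genes are known to carry sterol elements read by SREBP next to boxes read by NF-Y and SP1, its partners. RefSeq promoter windows (build GRCm38.p6, 250 bases before to 50 after the start) matched 16 of the 19 enzymes and 7 of the 8 control genes. The stretches shown lie just before the start of the gene and are clear of annotated exons. They were chosen for Mvk, which passed the test in the most pairwise comparisons, for Hmgcs1, the most abundant member, for Mvd and Insig1, which fell with HFD in both genotypes, and for Ggps1, an enzyme that passed in none. Each reads 5′ to 3′ along the gene, and capitals mark the NF-Y box CCAAT or, on the other strand, its complement ATTGG. They also mark the E-box CACGTG. In Hmgcs1 they mark in addition a match to the looser sterol element, which is TCACNCCAC.
Mvk (chr5:114444069-114444268, plus strand): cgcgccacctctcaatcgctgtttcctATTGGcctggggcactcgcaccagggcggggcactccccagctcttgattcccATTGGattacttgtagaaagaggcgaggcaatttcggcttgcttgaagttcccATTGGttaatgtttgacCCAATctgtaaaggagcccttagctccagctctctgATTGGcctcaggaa
Hmgcs1 (chr13:119690151-119690350, plus strand): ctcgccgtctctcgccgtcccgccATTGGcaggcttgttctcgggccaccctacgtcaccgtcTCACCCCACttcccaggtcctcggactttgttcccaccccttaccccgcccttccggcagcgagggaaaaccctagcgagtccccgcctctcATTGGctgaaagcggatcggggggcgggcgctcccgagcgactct
Mvd (chr8:122443423-122443622, minus strand): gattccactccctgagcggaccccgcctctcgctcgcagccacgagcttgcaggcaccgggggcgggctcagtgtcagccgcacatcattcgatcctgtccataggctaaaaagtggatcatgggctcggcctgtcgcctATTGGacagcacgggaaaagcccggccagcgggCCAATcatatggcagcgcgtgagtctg
Insig1 (chr5:28071163-28071362, plus strand, ending 49 bases before the RefSeq start): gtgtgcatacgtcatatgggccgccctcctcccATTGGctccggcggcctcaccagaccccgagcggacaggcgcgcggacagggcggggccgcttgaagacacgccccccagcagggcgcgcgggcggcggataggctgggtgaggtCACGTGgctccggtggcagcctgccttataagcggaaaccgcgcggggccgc
Ggps1 (chr13:14063490-14063603, minus strand): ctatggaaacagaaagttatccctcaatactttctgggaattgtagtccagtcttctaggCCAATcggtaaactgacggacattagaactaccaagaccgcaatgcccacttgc

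The Mvk stretch holds 5 NF-Y boxes, those of Hmgcs1 and Mvd hold 2 each, and those of Insig1 and Ggps1 hold 1 each. The Ggps1 stretch is 114 bases long and the others 200, so these counts do not compare like lengths. Over its full window, Ggps1 holds CCAAT or ATTGG at -201, -160 and -55 from the start. Hmgcs1 holds them at -237, -176, -45 and 11, while Mvk, Mvd and Insig1 gain none. Hmgcs1 shows the looser sterol element, which stood in no other of the members with a window, and Insig1 shows the E-box CACGTG. Some genes have several windows, so shares are of genes with a match in any window. Across the full windows, searched on both strands, CCAAT stood in 15 of 16 enzymes (all but Acat2) and in 4 of 7 control genes (Insig1, Insig2, Srebf1 and Srebf2), against 41.1% of all 27025 genes with a window. GGGCGG, the SP1 box, stood in 14 of 16 enzymes and 6 of 7 control genes, against 38.2% of genes. CACGTG stood in 3 enzymes (Dhcr7, Hsd17b7 and Sc5d) and 2 control genes (Insig1 and Scap), against 8.09%. The looser sterol element stood in 1.44% of genes. The full sterol element and the PPAR element (a direct repeat with 1 base between) stood in no member's window, against 0.0999% and 0.0481% of genes. A match is a run of letters, not a proven site, and a missing match says only that these letters are not in this window. The Mvk window also holds exon bases of Mmab, and that of Ggps1 holds exon bases of Arid4b, so both members share their promoter region with a neighbour.

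Library totals ran from 33621040 to 53959405 expected counts, and member counts ran from 321 for Mbtps2 in its lowest library to 44372 for Hmgcs1 in its highest. Levels are given as CPM, counts scaled to the TMM-adjusted library total. Ppara, the targeted gene, read 19.2, 18.1 and 22 CPM in floxed chow against 8.42, 15.6 and 13 CPM in IEKO chow, where it did not pass the test (log2 fold change -0.68, adjusted p = 0.25 by edgeR). It read 39.3, 36.6 and 33.7 CPM in floxed HFD against 11.4, 11.1 and 17.3 CPM in IEKO HFD, a fall of 1.46 on the log2 scale (adjusted p = 0.031). The libraries of floxed chow were unusually alike, with a biological coefficient of variation of 0.0583 against 0.14 to 0.152 in the other groups. IEKO chow 3 lay between IEKO chow 1 and 2 for 22 of the 27 members. Counts that rest on the chow groups are repeated with floxed chow 1 and IEKO chow 3 both left out. The 8 epithelial markers summed to 13400 to 19200 CPM and the 5 markers of the distal ileum to 5090 to 6970 CPM over all libraries, while Pnlip, a pancreatic marker, was at 0.

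Some markers of region differed between groups and libraries. Lct encodes lactase, an enzyme of the upper small intestine. It measured 2.24, 2.75 and 2.01 CPM in floxed chow, 0.453, 102 and 57.6 CPM in IEKO chow, 256, 160 and 76.2 CPM in floxed HFD and 50.2, 128 and 144 CPM in IEKO HFD. The 6 proximal markers summed to 27.5 to 28.9 CPM in floxed chow, 33.1 to 159 CPM in IEKO chow, 131 to 446 CPM in floxed HFD and 87.5 to 197 CPM in IEKO HFD. None of them was at 0 in all libraries. Fgf15, a hormone gene of the distal ileum, was high in the same chow libraries as Lct. It measured 15.9, 16.7 and 12.1 CPM in floxed chow, 15.1, 109 and 69.3 CPM in IEKO chow, 84.5, 116 and 108 CPM in floxed HFD and 159, 79.5 and 104 CPM in IEKO HFD. Cyp3a11, one of the proximal list, measured 7.97, 34.5 and 23.7 CPM in IEKO chow and 2.18 to 4.07 CPM in the HFD libraries, so it was low where Lct was high on HFD. The part of these markers in the results was not tested beyond a fit that carries a score of the proximal list, whose counts are given beside each comparison. The proximal list holds Fabp1, which is also a known PPARA target.

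Before any contrast, the members spanned a wide range of levels. Per kilobase of transcript in floxed chow, Hmgcs1, which joins acetyl-CoA to acetoacetyl-CoA at the entry of the pathway, stood highest at 246 ± 4.29 CPM per kb (SD, n = 3). Fdps at 158 ± 1.69, Msmo1 at 152 ± 4.29 and Sqle at 126 ± 3.01 CPM per kb followed, and the gap between Fdps and Msmo1 was close to their spread. Among the control genes Insig1 (69.7 ± 0.968 CPM per kb) and the sterol carrier gene Stard4 (65 ± 1.68) were the most abundant. Srebf2 measured 41.1 ± 2.3 and Srebf1 14.2 ± 1.04 CPM per kb. Ggps1 (3.69 ± 0.225) and the protease gene Mbtps2 (2.25 ± 0.105) were the lowest, so the least abundant enzyme stood below every control gene but Mbtps2. Transcript lengths come from GENCODE vM21, and the order depends on which transcript is taken.

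**Figure D1:**
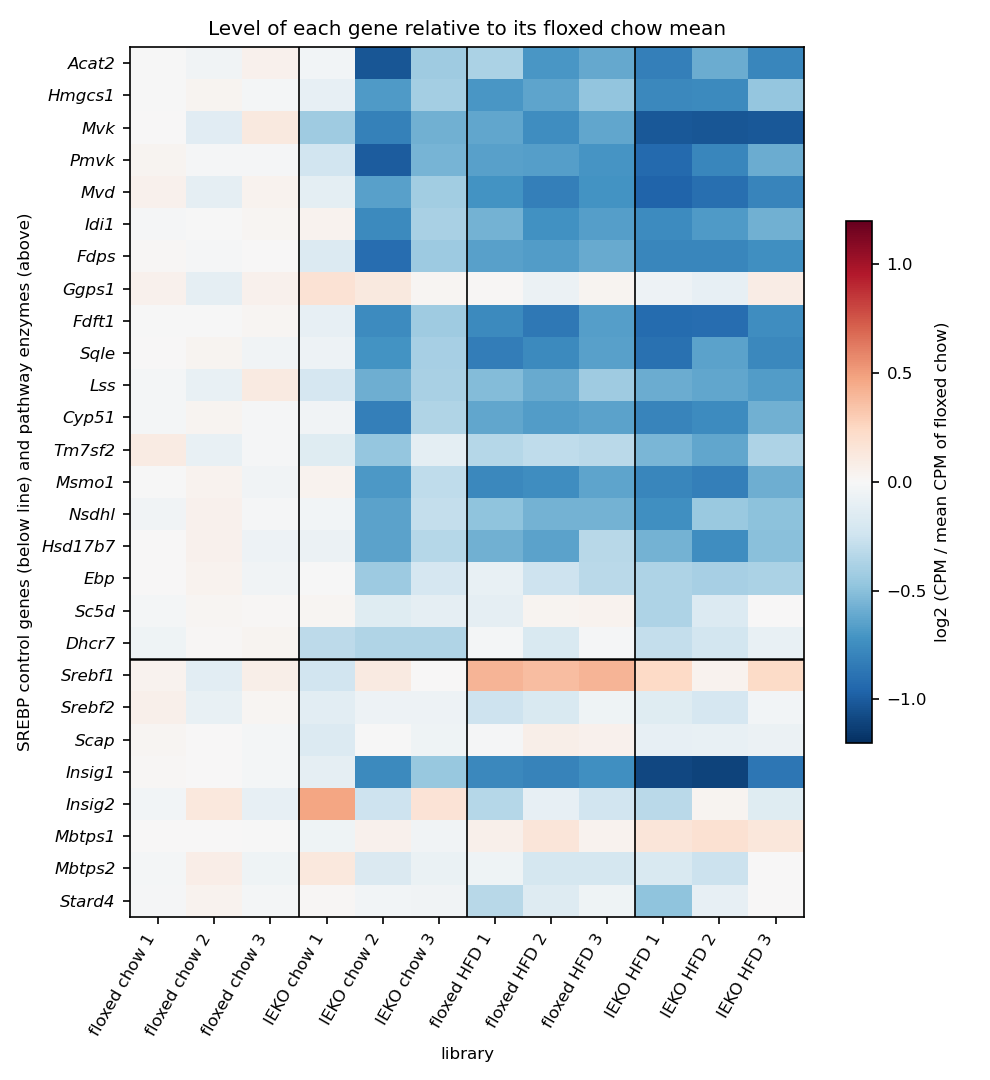
Level of each of the 27 members in each of the 12 libraries, as the log2 ratio of its CPM to its mean in floxed chow, with enzymes above the line and control genes below. Most enzyme rows and Insig1 turn blue (lower) in floxed HFD, in IEKO HFD and in IEKO chow 2, while Ggps1, Sc5d, Scap and Mbtps1 stay pale.

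The contrast of diets was read first in floxed mice, where Ppara is intact. Most of the pathway was lower on HFD: 14 of 19 enzymes fell, by 1.25 to 1.7-fold, and 0 rose. Of the 8 control genes, Insig1 fell, Srebf1 rose and the other 6 did not pass. In all, 15 of 27 members fell, while 6.57% of all genes tested fell, and 1 rose, while 6.8% of all genes rose. The median log2 fold change was -0.60 over the enzymes and -0.16 over the control genes, against 0.006 over all genes. In 16 of 19 enzymes every HFD library lay below every chow library, which held for 18.6% of all genes. In bulk tissue, fewer cells of a type and less RNA per cell cannot be told apart.

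The first steps of the pathway make mevalonate and activate it. Hmgcs1 (chromosome 13, 119690379 to 119708260, mm10) measured 848, 869 and 840 CPM on chow and 526, 551 and 614 CPM on HFD. Its fall was 0.60 on the log2 scale (SE 0.13, adjusted p = 0.0087). Mvk, mevalonate kinase (chromosome 5, 114444269 to 114460591), measured 51.2, 46.4 and 55.6 CPM on chow and 33.2, 30.5 and 33.1 CPM on HFD. For both genes the groups stood well apart, and Mvk fell by 0.66 (SE 0.09, adjusted p = 0.00078), the smallest adjusted p of any member in this contrast. Pmvk, phosphomevalonate kinase, adds the next phosphate and went from 58.8, 57 and 56.9 CPM to 36.6, 36.4 and 35.3 CPM. Mvd, mevalonate diphosphate decarboxylase (chromosome 8, 122433601 to 122443422), went from 79.7, 71.2 and 79.1 CPM to 46.6, 43.3 and 46.8 CPM. Pmvk fell by 0.67 (adjusted p = 0.011) and Mvd by 0.75 (adjusted p = 0.00092), so the entire run from mevalonate to isopentenyl diphosphate was lower with no overlap of libraries.

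The isoprenoid steps followed the same course with 1 exception. Idi1, the isomerase that makes dimethylallyl diphosphate, measured 230, 232 and 237 CPM on chow and 157, 141 and 147 CPM on HFD, and it fell by 0.65 (adjusted p = 0.013). Fdps, which builds farnesyl diphosphate, measured 220, 216 and 218 CPM on chow and 139, 137 and 143 CPM on HFD, and it fell by 0.64 (adjusted p = 0.0069). Ggps1, which takes farnesyl diphosphate away from sterols toward protein prenylation, measured 16.2, 14.5 and 16.2 CPM on chow and 15.8, 14.9 and 16 CPM on HFD. Its log2 fold change was -0.01 (SE 0.08, adjusted p = 0.96), and the groups overlapped fully.

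The enzymes that commit carbon to sterols fell as well. Fdft1, squalene synthase (chromosome 14, 63145150 to 63179578), measured 200, 200 and 204 CPM on chow and 118, 111 and 127 CPM on HFD, and it fell by 0.76 (SE 0.12, adjusted p = 0.0022). Sqle, squalene epoxidase and a known control point, measured 351, 356 and 339 CPM on chow and 196, 205 and 222 CPM on HFD, and it fell by 0.75 (SE 0.13, adjusted p = 0.0029). Lss closes the rings to lanosterol. It measured 102, 97.9 and 112 CPM on chow and 72.7, 68.4 and 77.4 CPM on HFD, a fall of 0.52 (adjusted p = 0.0032). In each of the 3 genes the lowest chow library stood above the highest HFD library.

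Past lanosterol, the demethylation steps fell and the last steps did not pass. Cyp51, lanosterol demethylase, measured 344, 358 and 345 CPM on chow and 227, 219 and 223 CPM on HFD (fall of 0.65, adjusted p = 0.011). Msmo1, the oxidase that begins removal of the methyl groups at carbon 4, measured 309, 321 and 303 CPM on chow and 182, 186 and 201 CPM on HFD (fall of 0.71, adjusted p = 0.0055). Its partners were lower too. Nsdhl, the dehydrogenase of that complex, measured 45.3, 48.2 and 45.9 CPM on chow and 33.3, 31.4 and 31.3 CPM on HFD (fall of 0.54, adjusted p = 0.011). Hsd17b7, its ketoreductase, measured 87.3, 90.7 and 83.9 CPM on chow and 58.6, 56.1 and 69.1 CPM on HFD (fall of 0.51, adjusted p = 0.016). Tm7sf2, a sterol reductase, fell by 0.32 (adjusted p = 0.034), from a mean of 55 to 44 CPM, and was called in 6 of 12 fits that left out a library.

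The enzymes left, beside Ggps1, did not pass. Acat2, which makes acetoacetyl-CoA, went from a mean of 57.8 ± 1.99 to 39.2 ± 4.59 CPM (SD, n = 3) with no overlap of libraries, or -0.56 on the log2 scale (SE 0.19, adjusted p = 0.079). Acat3, its near copy, stayed at 0.245 to 0.522 CPM in all libraries. Ebp, sterol isomerase, had a log2 fold change of -0.22 (adjusted p = 0.14). Sc5d, the sterol desaturase, and Dhcr7, the reductase of the final steps, had -0.01 and -0.07 (adjusted p = 0.95 and 0.56). Sc5d measured 129 ± 1.82 CPM on chow and 128 ± 6.87 CPM on HFD, and Dhcr7 measured 43.2 ± 1.27 and 41.2 ± 2.75 CPM, so their groups overlapped.

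The control genes divided. Insig1 (chromosome 5, 28071363 to 28078662) measured 190, 189 and 185 CPM on chow and 110, 108 and 113 CPM on HFD, and it fell by 0.77 (SE 0.12, adjusted p = 0.002), as deep as any enzyme. Srebf1, the factor best known for fatty acid synthesis (chromosome 11, 60199089 to 60222581), went the other way, from 63, 55.9 and 64.2 CPM to 81.1, 79 and 80.9 CPM. Its log2 fold change was 0.40 (SE 0.09, adjusted p = 0.011), and it was called in 11 of 12 fits that left out a library. Srebf2, the factor that drives the pathway, measured 218, 196 and 212 CPM on chow and 176, 184 and 202 CPM on HFD. The Srebf2 groups overlapped, and the log2 fold change was -0.16 (SE 0.08, adjusted p = 0.19). Insig2, the second retention protein, measured 44.6, 49.8 and 42.5 CPM on chow and 35.9, 42.6 and 39 CPM on HFD, with overlap (log2 fold change -0.22, SE 0.15, adjusted p = 0.37).

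The remaining control genes gave small values and did not pass in this contrast. Scap had a log2 fold change of 0.04 (adjusted p = 0.75). Mbtps1 and Mbtps2, the proteases that release SREBP, had 0.08 and -0.16 (adjusted p = 0.41 and 0.36). Stard4, a carrier of cholesterol between membranes, measured 331 ± 8.58 CPM on chow and 293 ± 28 CPM on HFD (log2 fold change -0.18, adjusted p = 0.3). Thus the mRNA of a retention protein fell with the enzymes, while those of the escort and the proteases gave values of -0.16 to 0.08.

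**Figure D2:**
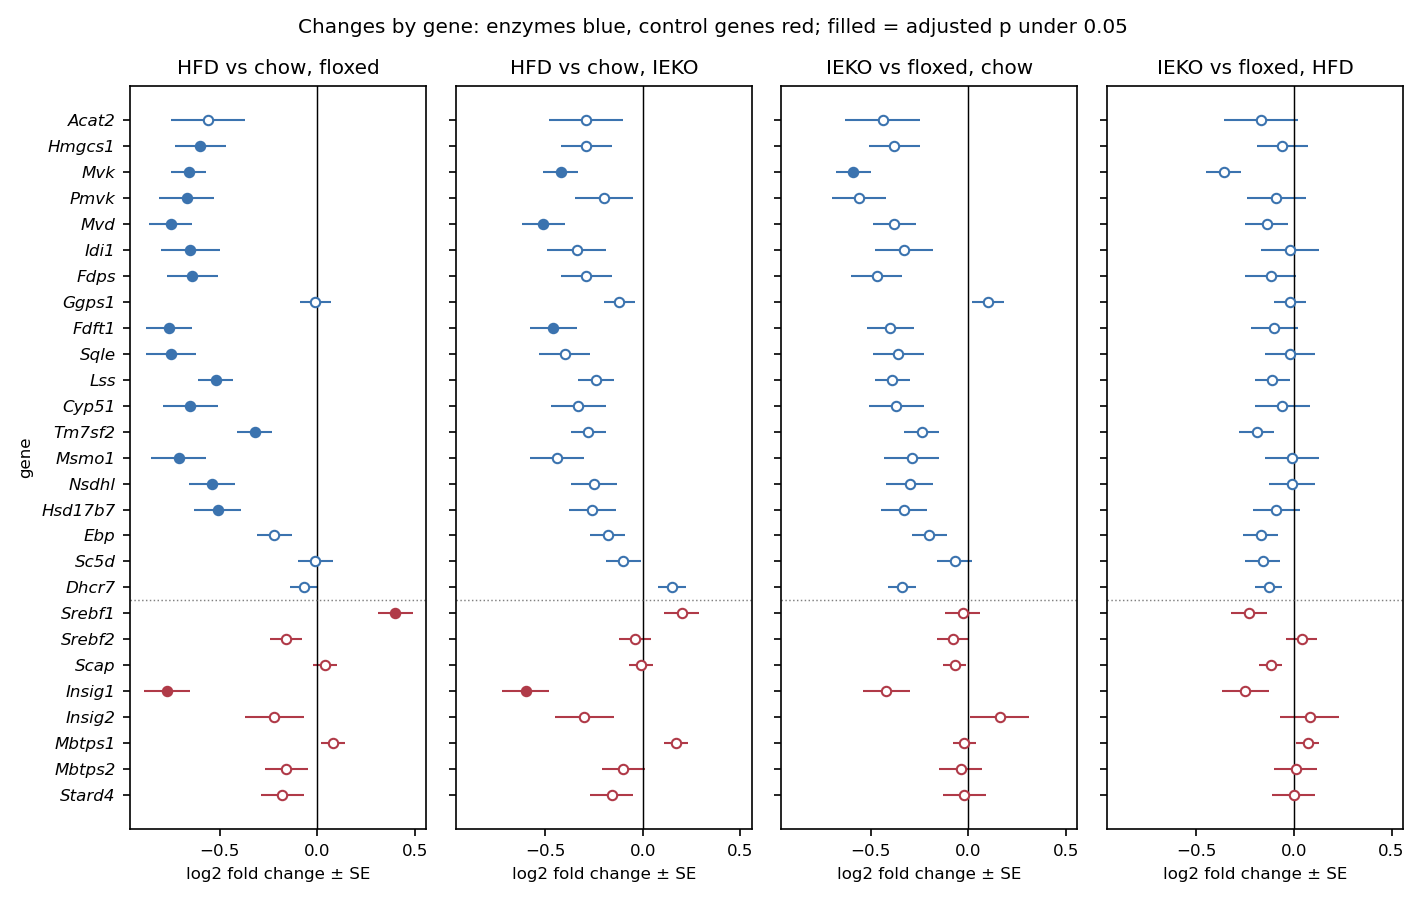
Log2 fold change of each member in the 4 pairwise contrasts, with bars of 1 SE, enzymes in blue and control genes in red, and filled points where the adjusted p is under 0.05. Filled points are common for HFD against chow in floxed (16 of 27), fewer in IEKO (4 of 27), single for genotype on chow (Mvk) and absent for genotype on HFD.

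How far the diet result holds depends on the libraries and on region markers. Without floxed chow 1 and IEKO chow 3 together, 7 members were called (Fdft1, Insig1, Lss, Msmo1, Mvd, Mvk and Sqle), while 1.36% of all genes fell. With the proximal score in the fit 0 members were called, and 2 genes in all. That score was -1.11 to -1.08 on chow and 0.09 to 1.16 on HFD in floxed mice, so it moves with the diet here. Diet and region of the intestine therefore cannot be told apart in these 2 groups. Of the 6 proximal markers, 2 rose in this contrast (Lct and Fabp1). Of the 5 distal ileal markers 1 rose, namely Fgf15 (log2 fold change 2.79, adjusted p = 0.024). Of the 8 epithelial markers 2 fell (median log2 fold change -0.12). Of 8 proliferation markers 1 fell (median -0.35), and their sums of 406 to 422 CPM on chow and 315 to 408 CPM on HFD overlapped narrowly. The adipocyte markers summed to 12.5 to 19.7 CPM on chow and 34 to 54.3 CPM on HFD. Of the 4 tested, however, 3 had negative values and 1 rose (median log2 fold change -0.79). Fdft1 shares 774 exon bases with Ctsb, and Cyp51 shares 166 with Akap9, each on the opposite strand. Ctsb fell by 0.33 (adjusted p = 0.022) and Akap9 rose by 0.54 (adjusted p = 0.014). The part of shared bases in the values of Fdft1 and Cyp51 was not tested. The strand setting used in counting is not given in the sources used here.

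In IEKO mice the same diet contrast gave fewer calls. Mvk, Mvd, Fdft1 and Insig1 fell, 0 members rose and 23 did not pass, while 4.76% of all genes fell and 3.44% rose. The median log2 fold change was -0.29 over the enzymes and -0.07 over the control genes, against 0.010 over all genes. Mvk measured 38, 29.2 and 34.3 CPM in IEKO chow and 25.2, 25.1 and 25.3 CPM in IEKO HFD, and it fell by 0.42 (SE 0.09, adjusted p = 0.015). Mvd measured 70.6, 48.7 and 57.6 CPM on chow and 39.3, 41 and 44.2 CPM on HFD, and it fell by 0.51 (SE 0.11, adjusted p = 0.012). In these 2 genes the groups did not overlap, and the HFD libraries of Mvk were nearly equal. Insig1 measured 175, 111 and 137 CPM on chow and 88.2, 87.2 and 103 CPM on HFD, and it fell by 0.60 (SE 0.12, adjusted p = 0.011). Fdft1 measured 188, 119 and 150 CPM on chow and 106, 107 and 120 CPM on HFD, and it fell by 0.46 (adjusted p = 0.037), although IEKO chow 2 lay just below the highest HFD library. Fdft1 was called in 6 of 12 fits that left out a library. Ctsb, with which it shares exon bases, had -0.28 (adjusted p = 0.058) with no overlap of libraries.

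Markers of other cells and of region also differed between the IEKO diets. Of the 8 epithelial markers 3 fell (median log2 fold change -0.22), and their sums were 15400 to 19200 CPM on chow and 13400 to 15800 CPM on HFD. Of 10 smooth muscle markers 3 rose and all 10 had positive values (median 0.81), with sums of 188 to 194 CPM on chow and 263 to 292 CPM on HFD. Of the 6 proximal markers 1 rose and 1 fell, the latter being Cyp3a11 (log2 fold change -2.50, adjusted p = 0.012). Fgf15 had 0.82 (adjusted p = 0.43). The part of these markers in the falls of the 4 members was not tested beyond the fit with the proximal score.

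The other enzymes did not pass, and in most of them the chow group was wide. Hmgcs1 measured 795, 532 and 643 CPM in IEKO chow and 500, 501 and 616 CPM in IEKO HFD. Sqle measured 335, 212 and 265 CPM on chow and 188, 223 and 204 CPM on HFD (log2 fold change -0.40, adjusted p = 0.065). Msmo1 measured 321, 193 and 251 CPM on chow and 181, 176 and 207 CPM on HFD (-0.44, adjusted p = 0.062). In all 3 genes IEKO chow 1 was the highest library and IEKO chow 2 lay among the HFD libraries. Cyp51 measured 340, 198 and 272 CPM on chow and 202, 207 and 234 CPM on HFD. Idi1 measured 240, 137 and 178 CPM on chow and 138, 145 and 156 CPM on HFD. Fdps measured 195, 116 and 161 CPM on chow and 127, 127 and 131 CPM on HFD. For each of these, IEKO chow 2 lay below all HFD libraries of the same genotype.

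The smaller enzymes repeated that order of libraries. Pmvk measured 49, 28.7 and 39 CPM on chow and 30.2, 33.5 and 38.1 CPM on HFD. Lss measured 90.3, 69.4 and 79.2 CPM on chow and 68.9, 67.7 and 65.5 CPM on HFD, with no overlap but a log2 fold change of only -0.24 (adjusted p = 0.11). Nsdhl measured 45.5, 29.8 and 38.2 CPM on chow and 28, 34.1 and 33 CPM on HFD. Hsd17b7, the last of the demethylation group, measured 83, 55.8 and 68.9 CPM on chow and 59.1, 52.2 and 61.7 CPM on HFD. Dhcr7 stood out by a positive value, 34 ± 0.689 CPM on chow and 37.7 ± 2.58 CPM on HFD with no overlap (log2 fold change 0.15, adjusted p = 0.23).

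Among control genes of IEKO mice, Srebf1 measured 52.1, 65.8 and 61.1 CPM on chow and 71.9, 62.7 and 71.3 CPM on HFD, with overlap (log2 fold change 0.20, adjusted p = 0.17). Srebf2 measured 192, 200 and 201 CPM on chow and 189, 182 and 204 CPM on HFD, a difference of -0.04 (adjusted p = 0.78). Insig2 measured 63.2, 38.4 and 51.2 CPM on chow and 36.5, 46.8 and 41.2 CPM on HFD (-0.30, adjusted p = 0.25). As for Insig1, IEKO chow 1 was the highest and IEKO chow 2 the lowest chow library of Insig2. Mbtps1 had 0.17 (adjusted p = 0.11) and the other 3 control genes -0.16 to -0.01, and none of them passed.

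The count of calls in IEKO mice turned on single chow libraries. It was 18 without IEKO chow 2, where 8.56% of all genes fell, 2 without IEKO chow 3, 3 without IEKO chow 1 and 0 without both floxed chow 1 and IEKO chow 3. It was also 0 when only the IEKO groups were fitted, and 3 with the proximal score (Insig1, Mvd and Mvk). The 14 enzymes that fell in floxed mice each had a log2 fold change of smaller size in IEKO mice, and the tests of that difference are given with the interaction.

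**Figure D3:**
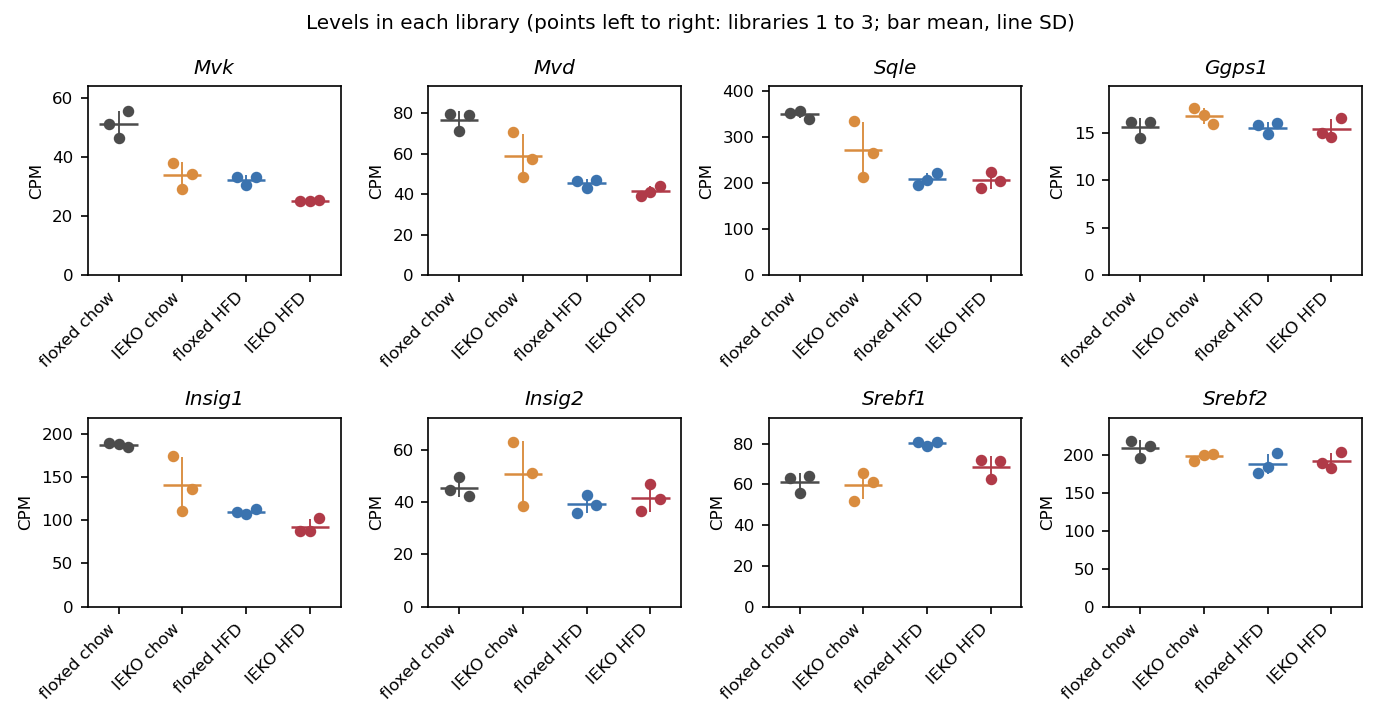
CPM of 8 members in each library by group, points from left to right being libraries 1 to 3, with the group mean as a bar and the SD as a line, and every axis starting at 0. Mvk, Mvd, Sqle and Insig1 are highest in floxed chow, the last 3 of these spread more widely in IEKO chow than in floxed chow, Srebf1 is highest in floxed HFD, and Ggps1 and Srebf2 overlap across the groups.

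The genotype comparison on chow asks what loss of epithelial Ppara does without added fat. Mvk was the 1 member that passed, while 0.0454% of all genes fell and 0.0795% rose. Its 51.2, 46.4 and 55.6 CPM in floxed stood above the 38, 29.2 and 34.3 CPM in IEKO, and it fell by 0.59 on the log2 scale (1.51-fold, SE 0.09, adjusted p = 0.027). The other enzymes leaned the same way without passing: 18 of 19 had a negative log2 fold change, with a median of -0.36, against -0.04 over the control genes and 0.003 over all genes. In 12 of 19 enzymes, and in Insig1, the highest IEKO library lay under the lowest floxed library, while 12.1% of all genes showed this. At an unadjusted p under 0.05 there were 16 enzymes and 17 members, all lower in IEKO, while 5.68% of all genes were lower at that threshold. Several marker lists of other kinds had negative values in the same contrast, though not all, with 0 of their genes called. The 8 epithelial markers split into 4 negative and 4 positive (median -0.02), and 5 of 6 proximal markers were positive (median 0.89). The 8 proliferation markers were all negative, 6 of them without overlap (median -0.30), and summed to 406 to 422 CPM in floxed chow and 330 to 384 CPM in IEKO chow. The 6 T cell markers were all negative, 5 without overlap (median -0.52, sums of 31.5 to 35.6 and 18.3 to 30.3 CPM). The 6 B and plasma cell markers were all negative, 4 without overlap (median -0.46, sums of 249 to 267 and 177 to 251 CPM), and the 3 blood markers had a median of -0.70. The part of these markers in the enzyme values was not tested beyond the fit with the proximal score.

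The largest values that did not pass were those of Pmvk (-0.56, SE 0.14, adjusted p = 0.18), Fdps (-0.47, SE 0.13, adjusted p = 0.2) and Acat2 (-0.44, SE 0.19, adjusted p = 0.36). Dhcr7 had the smallest adjusted p after Mvk, with 43.2 ± 1.27 CPM in floxed and 34 ± 0.689 CPM in IEKO (-0.34, SE 0.07, adjusted p = 0.092), and its 3 IEKO libraries agreed closely, unlike those of most enzymes. Insig1 had -0.42 (SE 0.12, adjusted p = 0.21). Ggps1 was the 1 enzyme with a positive value (0.10, adjusted p = 0.63). Srebf1, Srebf2, Scap, Mbtps1, Mbtps2 and Stard4 lay between -0.08 and -0.02, and Insig2 was at 0.16 (SE 0.15, adjusted p = 0.68).

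Most enzymes spread more widely in IEKO chow than in floxed chow, with Mvk, Ggps1 and Dhcr7 as exceptions. The 19 enzymes summed to 3286 to 3325 CPM in floxed chow, and to 3146, 2053 and 2556 CPM in IEKO chow 1, 2 and 3. IEKO chow 1 was above the highest floxed HFD library for 17 of 19 enzymes, whereas IEKO chow 2 was below the lowest floxed HFD library for 12 of 19. IEKO chow 3 lay between them for 16 of 19. Lct ran in the reverse order, measuring 0.453, 102 and 57.6 CPM in the same 3 libraries, with IEKO chow 1 below floxed chow. The 8 control genes summed to 943.5, 876 and 900.7 CPM, a sum made up largely of Stard4 and Srebf2. Insig1 (175, 111 and 137 CPM) and Insig2 (63.2, 38.4 and 51.2 CPM) ran in the order of the enzymes. Without IEKO chow 1, 16 members were called (15 enzymes and Insig1), while 0.764% of all genes fell. Without IEKO chow 2 or 3, or without floxed chow 1 or 3, 0 were called, as also without both floxed chow 1 and IEKO chow 3, with the proximal score, and with only the chow groups fitted (Mvk adjusted p = 0.056, against 2e-05 to 0.68 over its alternatives). Over all genes 22 were called in the main fit, 6 without IEKO chow 2 and 1 without IEKO chow 3. The number was 1 without floxed chow 1 and 8 without floxed chow 3. It was 1 without the pair, 2 with the proximal score and 54 with only the chow groups. The log2 fold change of Mvk itself was -0.59 with only the chow groups, -0.60 without the pair, -0.47 with the proximal score and -0.68 to -0.50 with 1 library left out. DESeq2 called 5 (Dhcr7, Fdps, Lss, Mvk and Pmvk), while it called 0.475% of all genes lower.

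**Figure D4:**
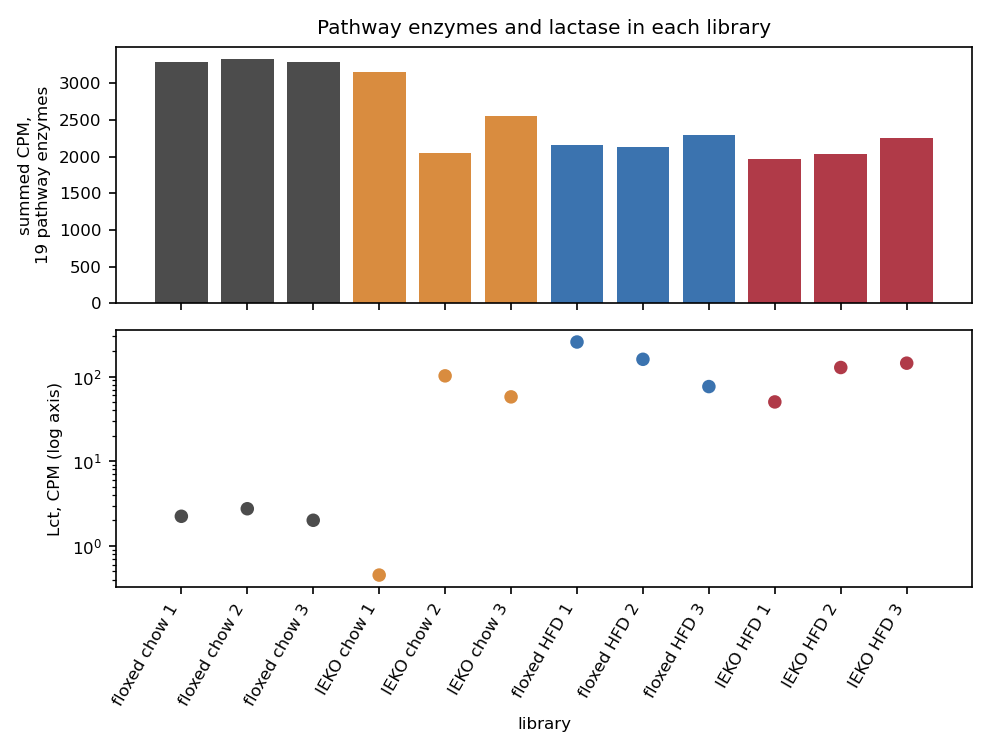
Upper panel, summed CPM of the 19 enzymes in each library on an axis from 0; lower panel, CPM of Lct in the same libraries on a log axis. The enzyme sum is 3286 to 3325 in floxed chow and 3146 in IEKO chow 1, where Lct is at 2.75 CPM or less, and 1964 to 2556 in the 8 libraries where Lct is at 50.2 CPM or more. In floxed HFD 1, 2 and 3 the sum is 2154, 2135 and 2295, with Lct at 256, 160 and 76.2 CPM. In IEKO HFD 1, 2 and 3 it is 1964, 2029 and 2246, with Lct at 50.2, 128 and 144 CPM, so both rise together there.

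On HFD 0 of 27 members passed the genotype test by edgeR, while 0.29% of all genes passed. At an unadjusted p under 0.05 there were 2 members (Mvk and Srebf1), while 13% of all genes reached it. DESeq2 called 1 (Mvk), with 1.26% of all genes lower. The enzymes had a median log2 fold change of -0.10, against 0.01 over the control genes and -0.001 over all genes. The value was negative in 19 of 19 enzymes and in 4 of 8 control genes. Mvk had the largest value, from 33.2, 30.5 and 33.1 CPM in floxed to 25.2, 25.1 and 25.3 CPM in IEKO with no overlap (log2 fold change -0.36, SE 0.09, adjusted p = 0.14). Insig1 had -0.25 (SE 0.12, adjusted p = 0.4) and Srebf1 -0.23 (SE 0.09, adjusted p = 0.3), each without overlap of libraries. Such separation was seen in 7 of 27 members, downward in IEKO, and in 8.7% of all genes. Srebf2 (0.04), Insig2 (0.08), Stard4 (-0.00) and Mbtps2 (0.01) lay near 0. Smooth muscle markers summed to 263 to 292 CPM in IEKO HFD and 194 to 232 CPM in floxed HFD. All 10 had positive values (median log2 fold change 1.03), and 1 of 10 passed. The part of these markers in the values of the members was not tested.

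The interaction asks whether the genotype difference depends on diet. By edgeR 0 of 27 members passed (smallest adjusted p = 0.77), while 0.00568% of all genes did, and DESeq2 also called 0. At an unadjusted p under 0.05 there were 2 members, while 6.34% of all genes reached it. The enzymes had a median interaction of 0.27 on the log2 scale, against -0.005 over all genes, with 17 of 19 positive. The largest was that of Pmvk (0.47, adjusted p = 0.77). The smaller diet values of the 14 enzymes in IEKO mice thus passed no test of the difference, which does not show that the genotypes respond alike.

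Averaged over diets, Mvk fell in IEKO by 0.48 (SE 0.07, adjusted p = 0.0073) and Dhcr7 by 0.24 (SE 0.05, adjusted p = 0.038), and 0.846% of all genes fell. Mvk kept an adjusted p under 0.05 with the proximal score (0.0087, against 2.3e-07 to 0.15 over its alternatives), which Dhcr7 did not, and neither was called without both floxed chow 1 and IEKO chow 3. The count of members was 17 without IEKO chow 1, where 4.1% of all genes fell, and 7 by DESeq2, where 4.18% fell. Averaged over genotypes, 17 members (16 enzymes and Insig1) were lower on HFD, while 13.3% of all genes fell. Srebf1 (0.30, adjusted p = 0.0035) and Mbtps1 (0.13, adjusted p = 0.047) were higher, while 12.9% of all genes rose. Acat2 (-0.42, adjusted p = 0.042) and Ebp (-0.20, adjusted p = 0.039) passed in this average. Of 12 fits that left out a library, Acat2 was called in 3, Ebp in 2 and Mbtps1 in 1, and Dhcr7 in the genotype average in 3. Sc5d, Ggps1 and Dhcr7 were the 3 enzymes that did not pass in the diet average. With the proximal score 0 members passed, and without floxed chow 1 and IEKO chow 3 the count was 16 (all but Acat2, Ebp and Mbtps1), with 13.2% of all genes called in either direction. Mbtps1 also lost its call with DESeq2 size factors.

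Genes beside the pathway were read from a second list, of which 22 were tested. In floxed mice 3 of them were lower and 2 were higher on HFD (median -0.11), while 6.57% of all genes fell and 6.8% rose. Those that fell supply acetyl-CoA units: Aacs, acetoacetyl-CoA synthetase (-0.84, adjusted p = 0.00023), Acly, ATP citrate lyase (-0.44, adjusted p = 0.0035), and Acss2, acetyl-CoA synthetase (-0.42, adjusted p = 0.0052). Aacs went from 145, 127 and 150 CPM to 74.3, 74.9 and 86.6 CPM, a larger log2 value than that of any member. Por, the electron donor of Cyp51 and Sqle, rose instead (0.66, adjusted p = 0.0038), as did the reductase gene Cyb5r3 (0.37, adjusted p = 0.019). In IEKO mice 4 fell, namely Aacs (-0.62), Acly (-0.38), Acss2 (-0.33) and the sterol-responsive Tmem97 (-0.39), and 0 rose. Of all genes 4.76% fell and 3.44% rose there. Averaged over diets, Aacs (-0.33, adjusted p = 0.027) and Acss2 (-0.32, adjusted p = 0.019) fell in IEKO, while 0.846% of all genes fell.

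The 15 lipogenic genes linked to SREBP1 did not move as a block. In floxed mice 4 were lower on HFD, namely the desaturase gene Fads2 (-0.32), Lpin1 (-0.54), Mid1ip1 (-0.35) and fatty acid synthase Fasn (-0.31). Another 2 were higher, Acacb (1.57) and the elongase gene Elovl5 (0.41), and the median was -0.04. Of all genes 6.57% fell and 6.8% rose in this contrast. Acacb, which makes malonyl-CoA at mitochondria, measured 4.2, 3.91 and 4.62 CPM on chow and 14.5, 15.2 and 8.13 CPM on HFD (adjusted p = 0.012). So the rise of Srebf1 stood beside falls in Fasn and Fads2. In IEKO mice Fads2 (-0.38), Mid1ip1 (-0.44) and Lpin1 (-0.45) fell and 0 rose, while 4.76% of all genes fell and 3.44% rose. Scd2, a desaturase gene, fell in IEKO averaged over diets (-0.34, adjusted p = 0.034), while 0.846% of all genes fell.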

How the data were processed

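Total RNA of mouse intestine was made into stranded libraries, per the labels' protocols. The authors deposited a table of expected counts per gene, estimates that need not be whole (12.3% to 13.2% of values per library) and are not scaled between libraries. Trimmomatic, STAR, Picard, RSEM and build mm10 are named without versions or roles, per the submitters' processing notes. Not given in the sources used here are the annotation release and the strand setting. Because RSEM divides reads among similar genes, near copies are uncertain, and without a known strand setting the 8 members that share exon bases with a gene on the opposite strand may hold its reads. On the same strand, 4 members share exon bases with another gene. They are Tm7sf2 with Vps51 (532 bases), Mbtps2 with Yy2 (2867), Fdps with Gm43738 (1124) and Srebf1 with Mir6922 (66). The part of these overlaps in the counts was not tested.

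Symbols came from GENCODE vM21, which may not be the authors' release; 47224 IDs matched. Counts were rounded and tested with edgeR 4.0.16 in R 4.3.3 (quasi-likelihood F test, robust fit, TMM, filterByExpr) in 1 fit of 4 group means over 12 libraries, with Benjamini-Hochberg adjustment over all 17602 genes tested and a threshold of 0.05. SEs were derived from the F statistic. The steps were tested on simulated data. Alternatives were DESeq2 1.42.0, its size factors in edgeR, no filter or 1 of 50 counts in 3 libraries, fits of only the compared groups, a replicate block, omission of each library, floxed chow 1 and IEKO chow 3 left out, and a score of proximal markers (mean centred log2 of CPM plus 0.5) as a covariate. Python 3.11.15, pandas 2.3.3 and matplotlib 3.10.9 were used.

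The members, the gene lists and the alternatives were chosen with earlier results of these data known. Library values are given for Mvk, Srebf1, Srebf2, Insig1 and Insig2, and for the 12 further members with the smallest adjusted p under 0.05 in a pairwise contrast. From the other lists up to 4 genes per contrast with the smallest adjusted p under 0.05 are named. Cyb5r3, Mid1ip1 and Fasn fall outside that rule in the diet contrast of floxed mice and were named after their values were seen, as were Ggps1, given by library as an enzyme that passed in no contrast, and the markers Lct, Fabp1, Fgf15 and Cyp3a11.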

Additional observations from a re-analysis of the deposited data

How the results depend on the processing

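The counts of members called moved by at most 1 with DESeq2 size factors and the filter of 50 counts, and depended mostly on single chow libraries and on the proximal score. For genotype on chow (1 member) the count was 5 by DESeq2, 0 with only the groups compared, 0 without floxed chow 1 and IEKO chow 3, 0 with the proximal score, and 0 to 16 with 1 library left out. For genotype on HFD (0) it was 1 by DESeq2. For diet in floxed (16) it was 7 without that pair of libraries and 0 with the proximal score. For diet in IEKO (4) it was 0 with only the groups compared, 0 without that pair and 2 to 18 with 1 library left out. For genotype averaged over diets (2) it was 7 by DESeq2, 5 without the filter, 0 without that pair, 1 with the proximal score and 1 to 17 with 1 library left out. For diet averaged over genotypes (19) it was 0 with the proximal score. The interaction gave 0 throughout. Where a count moved, the cause was not tested.

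Signs turned for these values. With 1 library left out, genotype on chow ran from -0.11 to 0.06 for Srebf1 (0.00 without floxed chow 3, 0.06 without IEKO chow 1) and from -0.02 (without IEKO chow 1) to 0.33 for Insig2. Genotype on HFD ran from -0.02 to 0.09 for Srebf2 (-0.01 without floxed HFD 1, -0.02 without IEKO HFD 3) and from -0.01 (without IEKO HFD 2) to 0.17 for Insig2. Insig2 for diet in floxed was 0.04 with the proximal score. The values followed were all 42 calls of members in any contrast, with the uncalled pairwise values of Mvk, Srebf1, Srebf2, Insig1 and Insig2. They numbered 56, and the share called among them is set by that choice. Of the 42 calls, 32 stayed called whichever library was left out.

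Same-numbered libraries correlated at -0.06 to 0.132 in their deviations from the group means, so no strong pairing by number was seen. These values cannot exclude a weaker pairing. With the replicate block the counts were 1 for genotype on chow, 0 on HFD, 16 for diet in floxed, 4 for diet in IEKO, 0 for the interaction, 3 for genotype averaged and 18 for diet averaged.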
